A study of Homo sapiens with 12 samples.

Results

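The genes described here are solute carriers with counts in HL60 cells, the membrane transporters whose symbols are written SLC, a family number, A and a member number. They were chosen by their symbol and by a mean raw count of at least 20 over the 12 libraries, with the glucose carriers SLC2A1 and SLC2A3 left aside. This rule selected 153 of the 59251 genes in the count table, out of 336 symbols of that form without the glucose carriers left aside. HL60 is an established human myeloid leukemia line. RNA-Seq was performed on 3 libraries each of non-treated cells, of cells given ATRA (all-trans retinoic acid) at 1 µM, of cells given the CDK4/6 inhibitor palbociclib (CDK4/6i) at 1 µM, and of cells given both (CDK4/6i+ATRA), all for 48 h in medium with serum. The labels call the libraries of a group biological replicates, and the paper bases its gene set scores for these data on 3 independent experiments. How the libraries of different groups match within an experiment is not given, and p-values measure only the spread between these samples. Total counts per library ranged from 12230923 to 18679544, with the CDK4/6i+ATRA libraries the 3 smallest.

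Solute carriers move amino acids, sugars, nucleosides, ions, metals, vitamins and lipids across the plasma membrane and the membranes of organelles, mostly without using ATP directly. The SLC25 family sits in the inner mitochondrial membrane and exchanges nucleotides, carboxylates and cofactors between matrix and cytosol. Dividing myeloid precursors import amino acids and nucleosides for growth, while maturing granulocytes and macrophages stop dividing and change how they handle sugars, lactate and ions.

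All 153 carriers passed the filter on low counts that left 13318 genes for testing. The mean raw count chose the carriers and is not a result. Of the 153, 135 had a mean count of at least 20 in every group, and 7 were under 20 only with CDK4/6i+ATRA. Without the CDK4/6i+ATRA libraries, 6 carriers would fall under the minimum, SLC9A7, SLC15A3, SLC26A11, SLC27A1, SLC41A2 and SLC43A2, and all 6 are among those higher with both drugs, so their place among the carriers rests on the group in which they are high. For 1 more the same holds of the non-treated libraries and for 1 of the CDK4/6i libraries. Counts without these 8 were added after the data were seen: 49 of the remaining carriers were higher and 78 lower with both drugs. Another 80 symbols of this form had no count in any library, among them SLC25A6, SLC39A7 and SLC41A1, and 6 of the 80, SLC25A6 and SLC39A7 included, are listed on several chromosomes or contigs. Whether carriers at 0 are absent from the cells was not tested. Just inside the minimum were SLC24A4 and SLC27A1, with mean counts of 20 and 22.2, and just outside were SLC14A2 and SLC22A23, with 18.9 and 18.1. Levels are CPM, counts scaled to a common library size, after trimmed mean of M-values (TMM) normalization, a change was called at a Benjamini-Hochberg adjusted p under 0.05 over all tested genes, and log2 fold changes carry their standard error (SE). The carriers held between 0.953% and 1.12% of the counts of a library.

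With CDK4/6i+ATRA, the amino acid, nucleoside, vitamin and mitochondrial carriers mostly fell against non-treated cells, while ion carriers mostly rose and single lactate, sugar, inositol and choline carriers rose many fold. Against non-treated cells, 55 of the 153 carriers were higher (41.0% of all tested genes were) and 79 lower (40.7% of all tested genes). The median log2 fold change was -0.27 over the carriers and 0.02 over all tested genes. The 3 CDK4/6i+ATRA libraries lay above all 9 others for 41 carriers (28.3% of all tested genes) and below all 9 for 56 (25.7%). The 6 carriers that met the minimum only through CDK4/6i+ATRA were not left out of this count. Where such a carrier lies above all others, that rests on how it was chosen, and a count without them is not given. ATRA alone gave 43 higher carriers (32.1% of all tested genes) and 82 lower ones (35.5%), with a median of -0.24 against -0.03 over all tested genes. Palbociclib alone gave 53 higher (28.3% of all tested genes) and 48 lower (27.9%), with a median of 0.06 against 0.02. All tested genes, the comparison used throughout, include genes under the carriers' minimum count, and calls were more frequent above it. Of the 11152 tested genes with a mean count of at least 20, 42.0% were higher and 44.5% lower with both drugs. These shares were 33.6% and 40.1% with ATRA alone, and 31.6% and 32.0% with palbociclib alone. In these bulk samples, fewer cells that carry a transcript and less of it per cell cannot be told apart. Scaling by library size alone moved the median of all tested genes by -0.27 for CDK4/6i+ATRA against non-treated and by 0.0404 for ATRA against non-treated, so fold changes with both drugs are relative to the TMM scale.

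**Figure D1:**
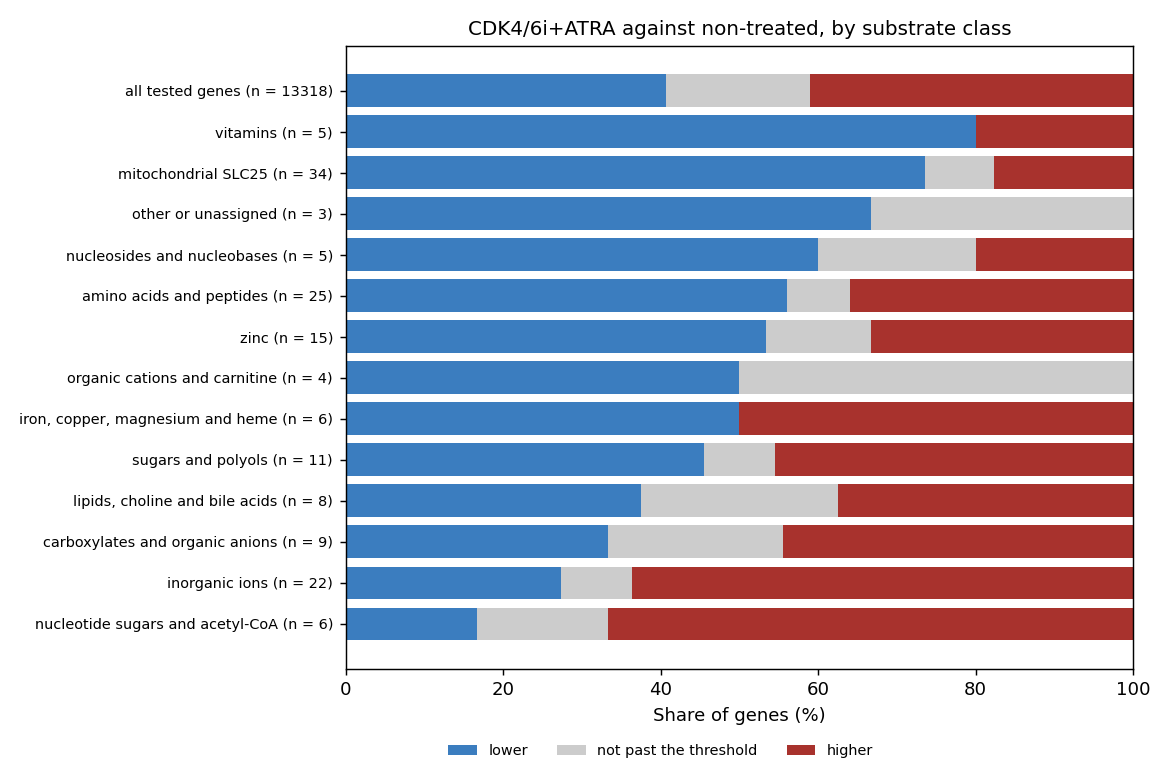
Share of the carriers of each substrate class (vertical axis, n carriers) that were lower, higher or not past the adjusted p threshold in CDK4/6i+ATRA against non-treated HL60 cells, in percent (horizontal axis), with all tested genes as the top bar. Vitamin and mitochondrial carriers had the largest shares of lower genes, 80.0% and 73.5%, and ion and nucleotide sugar carriers the largest shares of higher genes, although the nucleotide sugar class has only 6 carriers and its median changed sign when libraries were scaled by size alone.

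ATRA alone lowered amino acid, mitochondrial, vitamin and zinc carriers more often than it raised them. With ATRA alone, 15 of 25 amino acid carriers, 23 of 34 SLC25 carriers and 9 of 15 zinc carriers were lower, and 13 of 22 ion carriers were higher, which is 60%, 67.6% and 60% lower against 35.5% of all tested genes, and 59.1% higher against 32.1% (11 of 18 ion carriers without those that met the minimum only through 1 group). Medians were -0.63 for amino acid, -0.29 for SLC25, -0.26 for zinc and 0.29 for ion carriers. With palbociclib alone the median of SLC25 carriers was -0.03. That of amino acid carriers was 0.02, but -0.18 without SLC15A3 and SLC43A2, which met the minimum only through CDK4/6i+ATRA, with 9 higher and 10 lower among all 25 (36.0% and 40.0%, against 28.3% and 27.9% of all tested genes) and 8 higher and 10 lower among the other 23. Nucleoside and vitamin carriers were lower more often than higher with either drug. Of 5 nucleoside carriers, 3 were lower and 1 higher with ATRA, and 3 and 1 with palbociclib. Of 5 vitamin carriers, 4 were lower and 1 higher with ATRA, and 4 and 0 with palbociclib. Zinc carriers differed by drug, with 9 higher (60%) and 5 lower (33.3%, near the 27.9% of all tested genes) with palbociclib. Leaving SLC4A8 aside, SLC26A1, an anion exchanger of sulfate, had the largest rise with palbociclib alone among called carriers whose mean level reached 5 CPM. SLC4A8, a sodium-driven bicarbonate exchanger, read 0.781, 0.752 and 1.07 CPM in the non-treated libraries, 2.77, 3.03 and 3.70 with ATRA, 3.32, 3.79 and 2.98 with CDK4/6i and 17.0, 15.9 and 15.9 with CDK4/6i+ATRA. The groups given 1 drug overlapped each other and lay above the non-treated libraries, and CDK4/6i+ATRA lay above them. The mean of SLC4A8 reached 5 CPM, the level for naming, only through CDK4/6i+ATRA, so no test is given. Its log2 fold change with palbociclib alone was 1.93. The antisense neighbour GALNT6, whose exons overlap those of SLC4A8, had 882% as many counts. The libraries were made with a directional kit, which keeps the strand, but whether the counting used it is not given in the sources used here, so counts beside antisense neighbours may or may not hold reads of both. SLC26A1 had means of 5.38, 5.41, 13.5 and 8.32 CPM in the 4 groups and rose with palbociclib alone by 1.32 (SE 0.135, edgeR quasi-likelihood test, adjusted p = 5.83e-12) on the log2 scale, with the antisense neighbour IDUA at 90.3% of its counts.

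Of the 25 amino acid and peptide carriers, 9 were higher and 14 lower with CDK4/6i+ATRA (36% and 56%, against 41.0% and 40.7% of all tested genes), at a median of -0.43. Without SLC15A3 and SLC43A2, 7 of 23 were higher and 14 lower, at -0.49. Their summed level was 3245 ± 105 CPM in the non-treated group, 1995 ± 8.13 in ATRA, 2398 ± 35.9 in CDK4/6i and 2140.2 ± 33.0 in CDK4/6i+ATRA (mean ± SD, n = 3). All groups were separate in this sum, and each treated group lay below the non-treated libraries. SLC43A2, a neutral amino acid carrier chosen after its values were seen, had means of 0.261, 1.05, 0.995 and 11.3 CPM in non-treated, ATRA, CDK4/6i and CDK4/6i+ATRA cells. It was high only in the group through which it met the minimum count. SLC7A5, which brings in leucine and other large neutral amino acids in exchange for glutamine, read 426, 409 and 403 CPM in the non-treated libraries, 116, 114 and 116 with ATRA, 259, 241 and 234 with CDK4/6i and 82.8, 94.0 and 89.1 with CDK4/6i+ATRA. The groups did not overlap, and the order from high to low was non-treated, CDK4/6i, ATRA and CDK4/6i+ATRA. Its log2 fold change with both drugs was -2.22 (SE 0.0445, edgeR quasi-likelihood test, adjusted p = 9.65e-41), lower in 3 of 3 libraries. SLC38A5, which carries glutamine with sodium, read 174, 166 and 171 CPM in the non-treated libraries, 53.4, 52.8 and 55.4 with ATRA, 134, 134 and 131 with CDK4/6i and 8.80, 8.91 and 10.1 with CDK4/6i+ATRA. Its CDK4/6i+ATRA libraries lay far below every other library, and the CDK4/6i libraries lay below the non-treated ones without overlap. The log2 fold change with both drugs was -4.20 (SE 0.0641, edgeR quasi-likelihood test, adjusted p = 7.70e-46), an 18.4-fold fall.

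RefSeq promoter windows of GRCh38.p14, 250 bases before to 50 after a start site, were matched by symbol for 124 of the 153 carriers, and the most upstream window was used where a gene had several, as 47 carriers did, a choice made after the table was seen. The letters CACGTG (an E-box, read on both strands and the same on each) stood in the window of 16 of 65 carriers that were lower with CDK4/6i+ATRA (24.6%) and of 2 of 42 that were higher (4.76%). The shares were 7.40% of all 27305 genes with a window, 13.0% of tested genes that were lower and 8.65% of those that were higher. With any window of a gene counted, the shares were 32.3% of the lower carriers, 16.7% of the higher carriers, 16.1% of lower and 10.8% of higher tested genes, and 8.77% of all genes, so the higher carriers turned from below to above the higher tested genes. The other letters were searched on both strands too, with any-window shares in brackets. TGACNNNGC stood in 21.0% (26.6%) of carriers, 15.8% (19.7%) of tested genes and 13.6% (16.1%) of all genes. TGCGCNC stood in 25.8% (33.9%) of carriers, 30.4% (35.7%) of tested genes and 19.9% (23.0%) of all genes, so carriers were above all genes and below tested genes. TGCACNC stood in 9.68% (17.7%) of carriers, 11.3% (15.1%) of tested genes and 11.9% (14.4%) of all genes, and the order of carriers and genes turned with the choice of window. TTGCATCA stood in 0% (1.61%) of carriers, 0.501% (0.746%) of tested genes and 0.93% (1.08%) of all genes, where the order also turned, and TTTGGCG in 0.806% (1.61%) of carriers, 3.04% (3.78%) of tested genes and 1.93% (2.32%) of all genes. A match is a description of letters and no evidence of binding. Parts of 4 windows of carriers that fell with both drugs, picked after their values were seen, show the E-box in capitals, 5′ to 3′ on the strand of the gene: SLC7A5 at chr16:87869572-87869697 (minus strand), SLC43A1 at chr11:57515749-57515874 (minus strand), SLC38A5 at chrX:48470401-48470510 (minus strand) and SLC29A1, a nucleoside carrier, at chr6:44219365-44219435 (plus strand).
SLC7A5: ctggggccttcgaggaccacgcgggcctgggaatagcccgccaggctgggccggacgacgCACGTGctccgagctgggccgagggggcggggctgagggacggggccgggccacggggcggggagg
SLC43A1: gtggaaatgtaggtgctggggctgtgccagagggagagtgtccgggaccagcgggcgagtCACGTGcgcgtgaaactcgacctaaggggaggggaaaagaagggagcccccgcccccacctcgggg
SLC38A5: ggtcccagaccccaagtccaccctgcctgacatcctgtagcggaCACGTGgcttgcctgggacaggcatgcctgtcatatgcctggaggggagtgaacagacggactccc
SLC29A1: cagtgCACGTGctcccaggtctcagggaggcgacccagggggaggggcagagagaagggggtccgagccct

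SLC43A1, a sodium-independent carrier of large neutral amino acids whose window is given before, read 116, 109.6 and 105 CPM in the non-treated libraries, 38.0, 38.7 and 40.9 with ATRA, 115, 115 and 106 with CDK4/6i and 13.8, 11.1 and 12.6 with CDK4/6i+ATRA. Non-treated and CDK4/6i libraries overlapped, while the ATRA libraries were lower and the CDK4/6i+ATRA libraries lower again. With both drugs its log2 fold change was -3.13 (SE 0.0703, edgeR quasi-likelihood test, adjusted p = 1.14e-38), and it was chosen after its values were seen. SLC1A4, a carrier of serine and alanine, read 221, 209 and 209 CPM in the non-treated libraries, 68.0, 68.1 and 76.3 with ATRA, 105, 104 and 107 with CDK4/6i and 11.8, 12.03 and 12.6 with CDK4/6i+ATRA. Each treatment separated from the others, with CDK4/6i+ATRA lowest. The log2 fold change with both drugs was -4.13 (SE 0.0625, edgeR quasi-likelihood test, adjusted p = 5.42e-46). SLC1A5, the sodium-coupled glutamine carrier with the highest level per length among the amino acid carriers (120.3 CPM per kb over the 12 libraries), read 652, 618 and 598 CPM in the non-treated libraries, 342, 343 and 351 with ATRA, 320.1, 293 and 295 with CDK4/6i and 231, 252 and 263 with CDK4/6i+ATRA. The CDK4/6i+ATRA libraries were the lowest, but the distance to the CDK4/6i libraries was small beside the fall from the non-treated ones. Both drugs gave -1.32 (SE 0.0428, edgeR quasi-likelihood test, adjusted p = 7.89e-32) on the log2 scale. The arginine and lysine carrier SLC7A1 and the glutamine carrier SLC38A1, chosen after their values were seen, fell with log2 fold changes of -2.68 and -3.33.

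SLC7A11, which imports cystine in exchange for glutamate, rose while its heavy chain partner did not. SLC7A11 read 44.5, 42.6 and 46.3 CPM in the non-treated libraries, 121, 121 and 115 with ATRA, 84.0, 86.2 and 85.3 with CDK4/6i and 367, 334 and 347 with CDK4/6i+ATRA. All 4 groups were separate, with the CDK4/6i+ATRA libraries highest. The log2 fold change with both drugs was 2.97 (SE 0.045, edgeR quasi-likelihood test, adjusted p = 5.67e-46), a 7.85-fold rise. SLC3A2, the heavy chain that brings SLC7A5 and SLC7A11 to the surface, read 165, 155 and 153 CPM in the non-treated libraries, 83.3, 81.0 and 86.0 with ATRA, 109.9, 111 and 107 with CDK4/6i and 115, 126 and 120.1 with CDK4/6i+ATRA. Every treated library lay below the non-treated ones, and the CDK4/6i and CDK4/6i+ATRA libraries were close to each other. With both drugs it fell to 0.765 of the non-treated level, -0.39 (SE 0.0432, edgeR quasi-likelihood test, adjusted p = 2.33e-11) on the log2 scale. The taurine carrier SLC6A6, chosen after its values were seen, rose with mean levels of 94.7, 286, 128 and 570.4 CPM in non-treated, ATRA, CDK4/6i and CDK4/6i+ATRA cells.

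**Figure D2:**
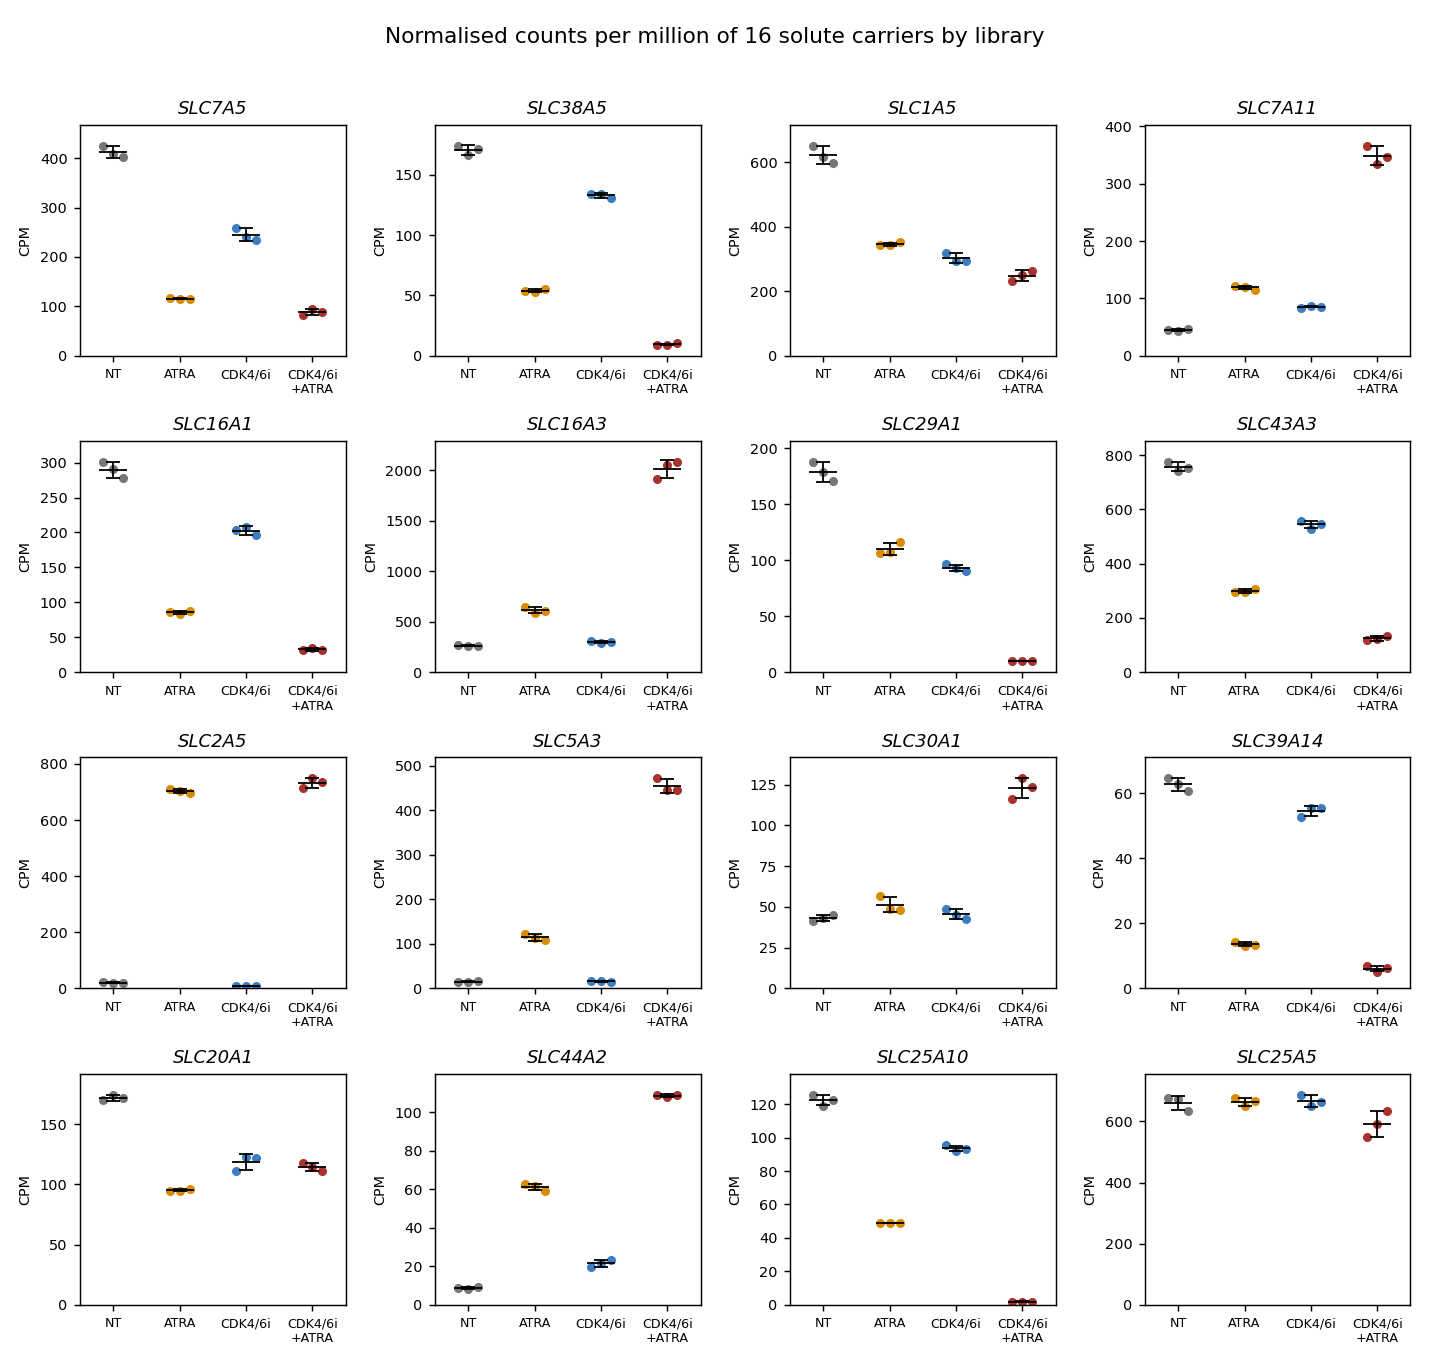
Normalised CPM (vertical axes, each from 0) of 16 carriers in the 12 libraries, by group, with NT for non-treated, points for libraries and black bars for the mean ± SD (n = 3). SLC7A5, SLC38A5, SLC29A1 and SLC25A10 were lowest with CDK4/6i+ATRA, SLC7A11, SLC16A3 and SLC5A3 highest, and SLC2A5 was high in both groups given ATRA.

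Among the 9 carboxylate and organic anion carriers, the proton-coupled lactate carriers SLC16A1 and SLC16A3 moved in opposite directions. SLC16A1, chosen after its values were seen, read 301, 291 and 278 CPM in the non-treated libraries, 86.0, 83.4 and 87.2 with ATRA, 204, 208 and 196 with CDK4/6i and 31.6, 34.6 and 30.9 with CDK4/6i+ATRA. The groups were separate, from non-treated down to CDK4/6i+ATRA. Its log2 fold change with both drugs was -3.16 (SE 0.0502, edgeR quasi-likelihood test, adjusted p = 4.05e-45). SLC16A3, known for lactate export from glycolytic cells, read 268, 259.7 and 254 CPM in the non-treated libraries, 643, 586 and 606 with ATRA, 308, 289 and 299 with CDK4/6i and 1915, 2049 and 2082 with CDK4/6i+ATRA. ATRA and CDK4/6i+ATRA libraries were each above all non-treated and CDK4/6i libraries. The log2 fold change with both drugs was 2.95 (SE 0.0449, edgeR quasi-likelihood test, adjusted p = 6.24e-46), a 7.74-fold rise. The antisense neighbour CSNK1D, whose exons overlap those of SLC16A3, had 28.6% as many counts as SLC16A3. The class summed to 694 ± 19.8 CPM in the non-treated group, 839 ± 28.4 in ATRA, 630.3 ± 5.11 in CDK4/6i and 2239 ± 84.4 in CDK4/6i+ATRA (mean ± SD, n = 3). SLC16A3 was its largest part in every treated group. SLC16A6, another member of the monocarboxylate family, had means of 10.6, 8.98, 12.6 and 52.1 CPM in the 4 groups in that order, and rose with CDK4/6i+ATRA by a log2 fold change of 2.30 (SE 0.0861, edgeR quasi-likelihood test, adjusted p = 4.32e-29). SLC17A9, which loads ATP into vesicles, fell from a mean of 43.4 to 1.52 CPM, with 7.78 CPM in ATRA alone. BSG, the chaperone that SLC16A1 and SLC16A3 need to reach the surface, was lower with both drugs, with means of 852, 509, 862 and 493 CPM.

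The 5 nucleoside and nucleobase carriers summed to 994 ± 22.9 CPM in the non-treated group, 439 ± 12.3 in ATRA, 688 ± 16.0 in CDK4/6i and 148 ± 8.49 in CDK4/6i+ATRA (mean ± SD, n = 3). No groups overlapped, and the order from high to low was non-treated, CDK4/6i, ATRA and CDK4/6i+ATRA. In this class, 3 were lower and 1 higher with both drugs (60% and 20%, against 40.7% and 41.0% of all tested genes), at a median of -2.60. SLC29A1, the main equilibrative nucleoside carrier of the plasma membrane, whose E-box window is given before, read 188, 179 and 170.4 CPM in the non-treated libraries, 107, 107 and 117 with ATRA, 96.2, 92.7 and 90.3 with CDK4/6i and 9.72, 9.98 and 9.67 with CDK4/6i+ATRA. The ATRA and CDK4/6i libraries were close to each other and below the non-treated ones, and the CDK4/6i+ATRA libraries were far below both. With both drugs the log2 fold change was -4.19 (SE 0.0673, edgeR quasi-likelihood test, adjusted p = 6.69e-45), and the interaction, the departure from additive log2 effects of the drugs, was -2.55 (SE 0.0884, edgeR quasi-likelihood test, adjusted p = 6.70e-29). SLC29A2, another equilibrative nucleoside carrier, fell from 46.9 to 1.63 CPM with -4.86 (SE 0.139, edgeR quasi-likelihood test, adjusted p = 4.67e-34) on the log2 scale. SLC43A3, a purine nucleobase carrier with the highest level per length in this class (148 CPM per kb), read 775, 742 and 752 CPM in the non-treated libraries, 295, 294 and 308 with ATRA, 557, 528 and 547 with CDK4/6i and 117, 123 and 135 with CDK4/6i+ATRA. The groups were separate. On the log2 scale, the change with both drugs was -2.60 (SE 0.0439, edgeR quasi-likelihood test, adjusted p = 6.51e-44). SLC43A3 and SLC43A1 lie on chromosome 11 with 56954 bases between them, and both fell.

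Of the 11 sugar and polyol carriers, 5 were higher and 5 lower with both drugs (45.5% each way, near the 41.0% and 40.7% of all tested genes). They summed to 163 ± 2.67 CPM in the non-treated group, 956 ± 11.1 in ATRA, 139 ± 3.48 in CDK4/6i and 1309 ± 10.9 in CDK4/6i+ATRA (mean ± SD, n = 3). ATRA and CDK4/6i+ATRA libraries were far above the others in this sum, which SLC2A5 mainly made. SLC2A5, a fructose carrier, read 22.2, 19.1 and 20.6 CPM in the non-treated libraries, 711, 704 and 697 with ATRA, 9.59, 9.41 and 9.77 with CDK4/6i and 715, 749 and 735 with CDK4/6i+ATRA. No groups overlapped, and both groups given ATRA were high, both groups without it were low, and CDK4/6i alone lay below non-treated. The log2 fold changes were 5.09 (SE 0.0491, edgeR quasi-likelihood test, adjusted p = 1.28e-53) for ATRA alone and -1.11 (SE 0.078, edgeR quasi-likelihood test, adjusted p = 2.47e-17) for CDK4/6i alone. For CDK4/6i+ATRA against ATRA it was 0.06, with adjusted p = 0.147 in the edgeR quasi-likelihood test, so no change was called. SLC5A3, which takes up myo-inositol with sodium, read 14.7, 15.1 and 15.5 CPM in the non-treated libraries, 123, 113 and 108 with ATRA, 16.5, 17.0 and 14.9 with CDK4/6i and 472, 445 and 445 with CDK4/6i+ATRA. Non-treated and CDK4/6i libraries overlapped, and CDK4/6i+ATRA libraries were above the ATRA libraries. With both drugs the log2 fold change was 4.91 (SE 0.0549, edgeR quasi-likelihood test, adjusted p = 1.34e-51), and the interaction was 1.89. MRPS6, on the same strand with exons shared with SLC5A3, had 60.1% as many counts, so their reads cannot be fully told apart. SLC37A4, the glucose 6-phosphate carrier of the endoplasmic reticulum, read 37.5, 35.9 and 38.7 CPM in the non-treated libraries, 18.9, 18.8 and 19.7 with ATRA, 12.2, 13.1 and 12.1 with CDK4/6i and 1.37, 2.41 and 1.98 with CDK4/6i+ATRA. It fell in every treated group, lowest with CDK4/6i+ATRA, at -4.27 (SE 0.13, edgeR quasi-likelihood test, adjusted p = 6.52e-33) on the log2 scale. Its antisense neighbour TRAPPC4 had 158% as many counts. SLC37A2, a sugar phosphate carrier, was at 0.567 CPM in non-treated and 28.3 CPM in CDK4/6i+ATRA cells. Its mean reached 5 CPM, the level for naming, only through that group, so no test is given.

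Of the 22 inorganic ion carriers, 14 were higher and 6 lower with both drugs (63.6% and 27.3%, against 41.0% and 40.7% of all tested genes), at a median of 0.62. Their sum was 657 ± 9.50 CPM in the non-treated group, 800.0 ± 11.5 in ATRA, 659 ± 11.6 in CDK4/6i and 1446 ± 23.8 in CDK4/6i+ATRA (mean ± SD, n = 3). Without those that met the minimum only through 1 group, 12 were higher and 5 lower of 18, at a median of 0.62. The CDK4/6i+ATRA libraries were above all others in that sum. SLC9A7, a sodium and proton exchanger of the Golgi, read 0.481, 0.125 and 0.169 CPM in the non-treated libraries, 1.42, 0.991 and 0.829 with ATRA, 0.415, 0.367 and 0.0585 with CDK4/6i and 29.1, 24.2 and 23.6 with CDK4/6i+ATRA. It was near 0 in the groups without ATRA and stayed low with ATRA alone. It met the minimum count only through the CDK4/6i+ATRA libraries, so its level there is given with no test. SLC26A11, an anion carrier, had 0 counts in all 3 non-treated libraries and a mean of 26.9 CPM in CDK4/6i+ATRA cells, and it too met the minimum count only through that group, so no test is given. SLC9A3, a sodium and proton exchanger of the plasma membrane, had means of 3.08, 9.45, 2.04 and 24.6 CPM, and SLC9A3-AS1, which shares exons with it, had 62.9% as many counts. SLC8A1, a sodium and calcium exchanger, was at 1.86 CPM in non-treated and 22.4 CPM in CDK4/6i+ATRA cells. The means of SLC9A3 and SLC8A1 reached 5 CPM, the level for naming, only through CDK4/6i+ATRA, so no test is given here. SLC20A1 had the highest level per length among ion carriers (37.9 CPM per kb). SLC12A7, a potassium and chloride cotransporter, fell with both drugs (-1.95), and its mean reached 5 CPM only through CDK4/6i, so no test is given for that group. SLC20A1, a phosphate carrier, had log2 fold changes of -0.85, -0.54 and -0.59 with ATRA, CDK4/6i and both.

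Zinc carriers, 15 in all, gave 5 higher and 8 lower with both drugs (33.3% and 53.3%, against 41.0% and 40.7% of all tested genes), at a median of -0.29. Their sum was 1134 ± 17.6 CPM in the non-treated group, 786 ± 3.83 in ATRA, 1115 ± 6.59 in CDK4/6i and 852 ± 12.7 in CDK4/6i+ATRA (mean ± SD, n = 3). SLC30A1, which exports zinc from the cell, read 41.3, 43.4 and 45.3 CPM in the non-treated libraries, 56.6, 48.9 and 48.2 with ATRA, 49.0, 44.8 and 42.8 with CDK4/6i and 116, 129 and 124 with CDK4/6i+ATRA. CDK4/6i+ATRA libraries were above all others, and the other 3 groups lay close together with the CDK4/6i libraries overlapping the non-treated and the ATRA ones. Its log2 fold change with both drugs was 1.50 (SE 0.0578, edgeR quasi-likelihood test, adjusted p = 1.34e-28). The part of its promoter window printed next, at chr1:211579162-211579270 (minus strand, GRCh38.p14, RefSeq), holds TGCACNC, letters like those of a metal response element, and was picked after its values were seen; the capitals mark the match on the opposite strand.
SLC30A1: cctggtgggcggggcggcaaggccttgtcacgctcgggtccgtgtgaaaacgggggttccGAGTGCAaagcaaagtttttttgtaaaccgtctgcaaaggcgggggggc

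SLC39A14, which imports zinc and iron, read 64.6, 63.0 and 60.7 CPM in the non-treated libraries, 14.3, 13.1 and 13.4 with ATRA, 52.8, 55.6 and 55.4 with CDK4/6i and 6.97, 5.17 and 6.20 with CDK4/6i+ATRA. Each group was separate, with ATRA and CDK4/6i+ATRA lowest. The fall with both drugs was -3.36 (SE 0.0886, edgeR quasi-likelihood test, adjusted p = 1.25e-35) on the log2 scale. SLC39A8, an importer of zinc and manganese with the highest level per length among zinc carriers (24.6 CPM per kb), had means of 269, 155, 221 and 144 CPM. Metallothioneins, which bind zinc, had 5 of 12 listed genes tested, and MT1F, with means of 0.237, 0.501, 0.703 and 0.768 CPM, was higher with both drugs, while MT1E, MT1X and MT2A were lower, with means in non-treated and CDK4/6i+ATRA cells of 30.6 and 6.39, 27.6 and 7.70, and 89.0 and 16.1 CPM. MTF1, the zinc-sensing transcription factor on that list, rose from 35.6 to 182 CPM. The 6 carriers of iron, copper, magnesium and heme gave 3 higher and 3 lower (50% each way, near the 41.0% and 40.7% of all tested genes). Their median of 0.24 became -0.03 when libraries were scaled by size alone and -0.27 without SLC41A2, which met the minimum only through CDK4/6i+ATRA. Without SLC41A2, 2 were higher and 3 lower of 5. SLC40A1, the iron exporter, fell from 11.2 to 1.98 CPM, and SLC48A1, a heme carrier, rose from 15.2 to 29.4 CPM, with the antisense neighbour HDAC7 at 118% of its counts. SLC41A3, a magnesium carrier with the highest level per length of these (14.4 CPM per kb), had a log2 fold change of -0.27. SLC31A1, the copper importer, chosen after its values were seen, rose with both drugs by 0.75 (SE 0.0609, edgeR quasi-likelihood test, adjusted p = 7.83e-16) on the log2 scale.

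Lipid and choline carriers gave 3 higher and 3 lower of 8, with a median of 0.16 that became -0.11 under library size alone. These shares (37.5% each way) are near the 41.0% and 40.7% of all tested genes, and without SLC27A1, in the set only through CDK4/6i+ATRA, 2 were higher and 3 lower of 7. SLC44A2, a choline transporter-like protein that carries a neutrophil antigen, read 8.83, 7.96 and 9.35 CPM in the non-treated libraries, 62.5, 61.8 and 59.2 with ATRA, 19.6, 21.9 and 23.2 with CDK4/6i and 109, 108 and 109 with CDK4/6i+ATRA. Every treated group was above non-treated, in the order CDK4/6i, ATRA and CDK4/6i+ATRA. For both drugs the log2 fold change was 3.63 (SE 0.0712, edgeR quasi-likelihood test, adjusted p = 3.50e-41). SLC27A2, which activates and takes up very long chain fatty acids, read 148, 138 and 145 CPM in the non-treated libraries, 37.2, 40.2 and 39.9 with ATRA, 162, 155 and 163 with CDK4/6i and 10.1, 8.91 and 9.17 with CDK4/6i+ATRA. It was highest with CDK4/6i alone and lowest with CDK4/6i+ATRA. The log2 fold changes were 0.15 (SE 0.041, edgeR quasi-likelihood test, adjusted p = 0.00131) for CDK4/6i alone and -3.94 (SE 0.067, edgeR quasi-likelihood test, adjusted p = 8.54e-44) with both drugs. Of the 5 vitamin carriers, 4 fell with both drugs (80%, against 40.7% of all tested genes). SLC5A6, the multivitamin carrier, fell from 146 to 24.9 CPM, with its antisense neighbour ATRAID at 53.1% of its counts, and SLC23A2, which carries ascorbate, rose from 36.7 to 76.0 CPM. SLC22A16, an organic cation and carnitine carrier, had a non-treated to CDK4/6i+ATRA ratio of 59.6, with an exact 95% interval from 33.9 to 116 for counting error only. The 6 nucleotide sugar and acetyl-CoA carriers gave 4 higher and 1 lower (66.7% and 16.7%, against 41.0% and 40.7% of all tested genes). Their median of 0.22 became -0.05 under library size alone. SLC35A2, the UDP-galactose carrier of the Golgi, was higher (0.44) and SLC35A3, which carries UDP-N-acetylglucosamine, lower (-0.90). SLC35A4, a Golgi carrier of CDP-ribitol with the highest level per length of the class (39.0 CPM per kb), had means of 103, 87.8, 100.3 and 125 CPM and a log2 fold change of 0.29 with both drugs, which library size alone took to 0.02 with adjusted p = 0.631 in the same edgeR test. Of the 3 carriers outside these classes, SLC66A3 and SLC66A2, relatives of lysosomal amino acid carriers, fell with log2 fold changes of -1.11 and -0.59.

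**Figure D3:**
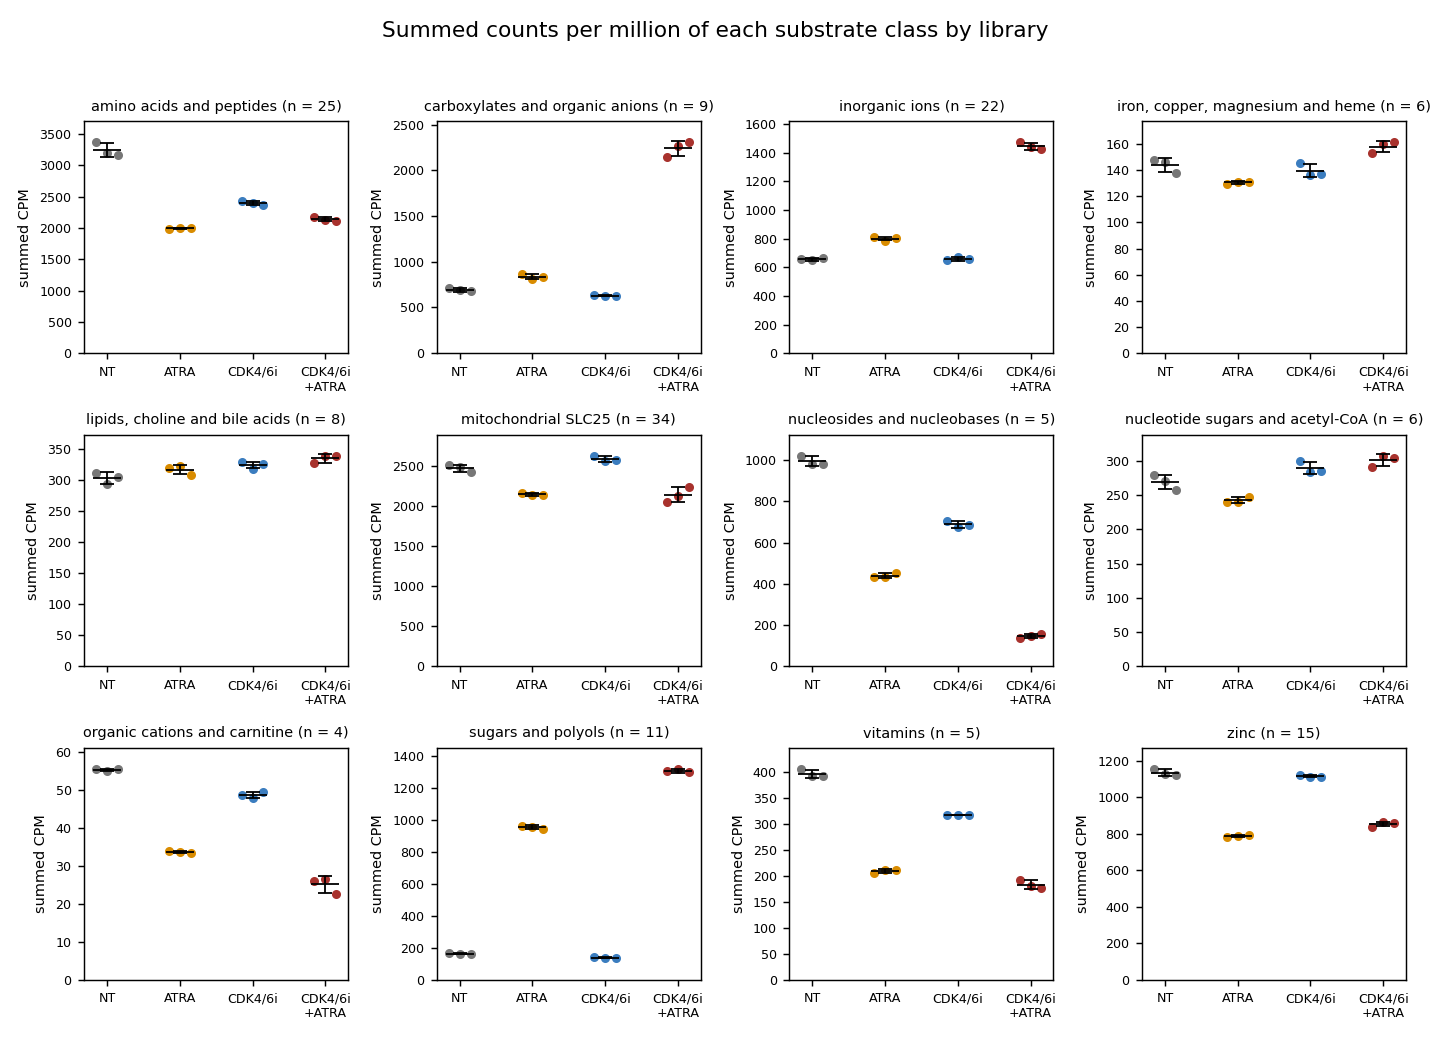
Summed normalised CPM of each substrate class (vertical axes, each from 0) in the 12 libraries by group, with NT for non-treated, points for libraries and black bars for the mean ± SD (n = 3). With CDK4/6i+ATRA, the sum of nucleoside carriers was the lowest of the groups at 148 CPM, and those of carboxylate, ion and sugar carriers were the highest at 2239, 1446 and 1309 CPM.

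The 34 mitochondrial SLC25 carriers fell more often than they rose with ATRA and with both drugs, and near the share of all tested genes with CDK4/6i: 5 higher and 23 lower with ATRA, 8 and 11 with CDK4/6i (32.4% lower, against 27.9% of all tested genes), and 6 and 25 with both. With both drugs, 17.6% were higher and 73.5% lower, against 41.0% and 40.7% of all tested genes. Their median with both drugs was -0.54, against -0.03 over the 119 other carriers, and their sum was 2479 ± 43.7 CPM in the non-treated group, 2153 ± 16.5 in ATRA, 2594 ± 34.9 in CDK4/6i and 2145 ± 94.1 in CDK4/6i+ATRA (mean ± SD, n = 3). The ATRA and CDK4/6i+ATRA libraries overlapped in this sum and lay below the others. SLC25A10, which exchanges malate and succinate for phosphate, read 126, 119 and 123 CPM in the non-treated libraries, 49.0, 48.7 and 49.0 with ATRA, 95.3, 92.0 and 93.5 with CDK4/6i and 1.65, 1.96 and 1.82 with CDK4/6i+ATRA. Its CDK4/6i+ATRA libraries were far below all others, and the other groups were separate. The log2 fold change with both drugs was -6.07 (SE 0.0918, edgeR quasi-likelihood test, adjusted p = 5.17e-46), and the interaction was -4.36 (SE 0.124, edgeR quasi-likelihood test, adjusted p = 4.45e-32). SLC25A20, which carries acylcarnitines for fatty acid oxidation, read 26.8, 26.9 and 27.5 CPM in the non-treated libraries, 48.4, 44.7 and 43.6 with ATRA, 37.6, 33.9 and 33.6 with CDK4/6i and 101, 108 and 102 with CDK4/6i+ATRA. It rose in each treated group and was highest with both drugs. Its log2 fold change with both drugs was 1.94 (SE 0.0592, edgeR quasi-likelihood test, adjusted p = 7.06e-33). SLC25A5, an ADP and ATP exchanger with the highest level per length of all carriers (494 CPM per kb), read 675, 673 and 634 CPM in the non-treated libraries, 676, 649 and 668 with ATRA, 687, 649 and 665 with CDK4/6i and 548, 591 and 636 with CDK4/6i+ATRA. Non-treated, ATRA and CDK4/6i libraries overlapped, and the CDK4/6i+ATRA libraries overlapped only the non-treated ones. With both drugs it fell by a log2 fold change of -0.16 (SE 0.0428, edgeR quasi-likelihood test, adjusted p = 7.95e-04). SLC25A15, which exchanges ornithine and citrulline, and SLC25A37, an iron importer, both chosen after their values were seen, fell with log2 fold changes of -2.05 and -1.20. SLC25A40, linked to mitochondrial glutathione and chosen after its values were seen, had means of 60.7, 118, 46.4 and 148 CPM and rose with both drugs.

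**Figure D4:**
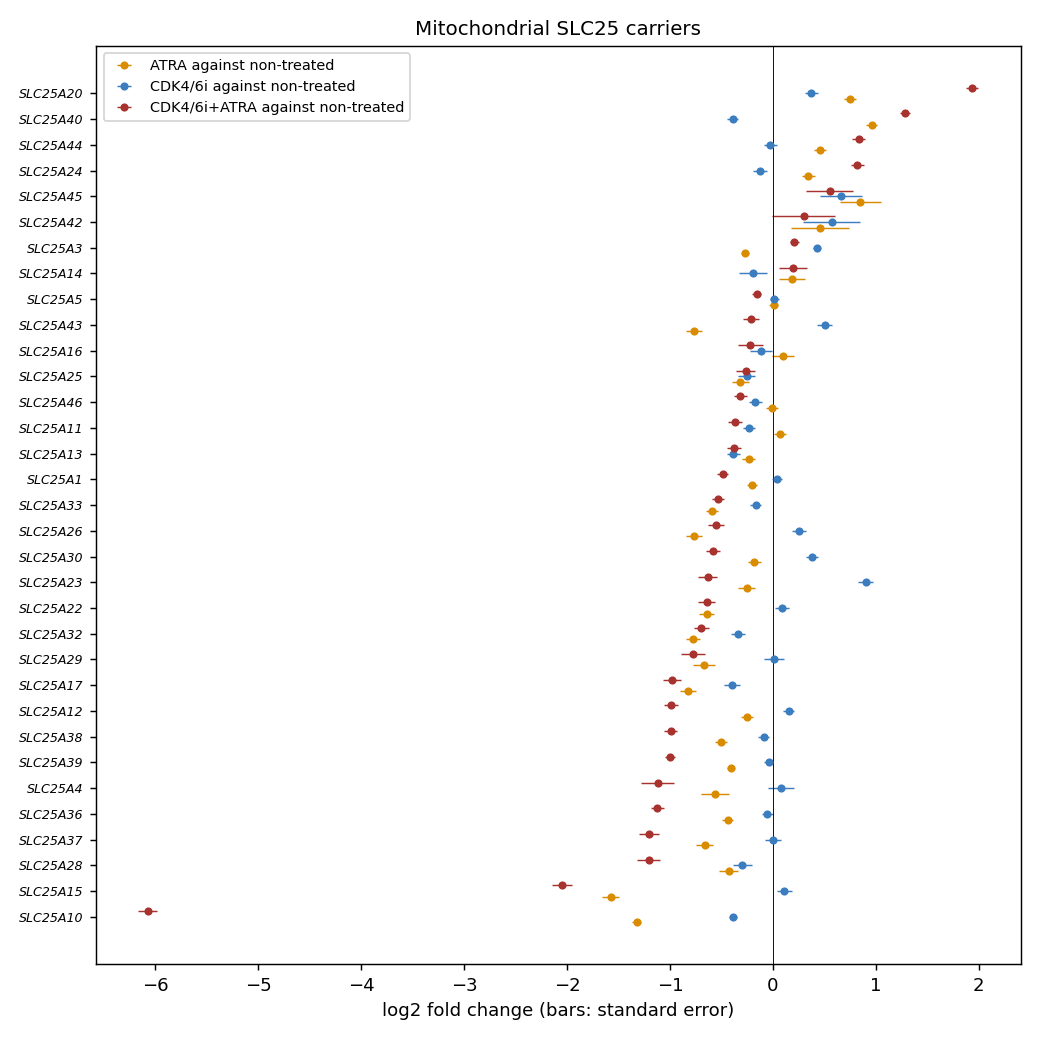
Log2 fold changes (horizontal axis, bars for the standard error) of 33 of the 34 mitochondrial SLC25 carriers (vertical axis, ordered by the change with both drugs) in ATRA, CDK4/6i and CDK4/6i+ATRA against non-treated cells. SLC25A10 at the bottom had the largest fall, and SLC25A20 at the top the largest rise with both drugs.

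The effect of ATRA in the absence and presence of palbociclib was compared over comparisons that share no library. Of the 153 carriers, 39 rose with ATRA in both settings (25.5%, against 26.6% of all tested genes), 74 fell in both (48.4%, against 29.4%), and 3 were called in opposite directions (1.96%, against 4.57%). CDK4/6i+ATRA against CDK4/6i gave 49 higher carriers (39.1% of all tested genes) and 84 lower ones (39.5%). Of the 145 carriers without those that met the minimum through 1 group, 43 were higher and 82 lower. The ATRA effect was larger in size with palbociclib for 120 of the carriers (78.4%, near the 72.5% of all tested genes), and the median size went from 0.67 to 0.955 (all tested genes, 0.458 to 0.748). Over the 145 carriers left without those that met the minimum through 1 group, the median size went from 0.648 to 0.910. Across carriers, which are not independent replicates, Pearson's r of these log2 fold changes was 0.89 and Spearman's rho 0.896 over 152 carriers, leaving out SLC26A11 because its fitted fold against 0 counts depends on the prior count, a choice made after the values were seen, and 0.895 and 0.898 with it. SLC9A7, SLC15A3, SLC27A1, SLC41A2 and SLC43A2, which met the minimum only through CDK4/6i+ATRA, were kept in these correlations and in the 120. Correlations without them are not given. For palbociclib without and with ATRA, 28 carriers rose in both (18.3%) and 33 fell in both (21.6%), near the 19% and 20% of all tested genes, and 20 were called in opposite directions (13.1%, against 6.74%). Across carriers this gave r = 0.496 and rho = 0.473 without SLC26A11 and r = 0.548 and rho = 0.483 with it, with SLC9A7 and the others of that kind kept. Of the same 145 carriers, CDK4/6i+ATRA against ATRA gave 47 higher and 64 lower ones. Of all 153, it gave 53 higher carriers (36.9% of all tested genes) and 64 lower ones (32.8%), but 39 and 91 under library size alone. Over all tested genes these counts went from 4920 higher and 4371 lower to 2956 and 6412. The interaction was higher for 46 carriers (24.5% of all tested genes) and lower for 58 (27.0%), but 28 and 91 under library size alone. All tested genes moved the same way, from 3258 higher and 3594 lower to 1375 and 6061. Of the 55 carriers higher with both drugs, 37 had a higher interaction (67.3%, against 46.3% over all tested genes; 67.3% of 49 without those that met the minimum through 1 group), and of the 79 lower ones, 48 had a lower one (60.8%, near the 53.3% over all tested genes).

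**Figure D5:**
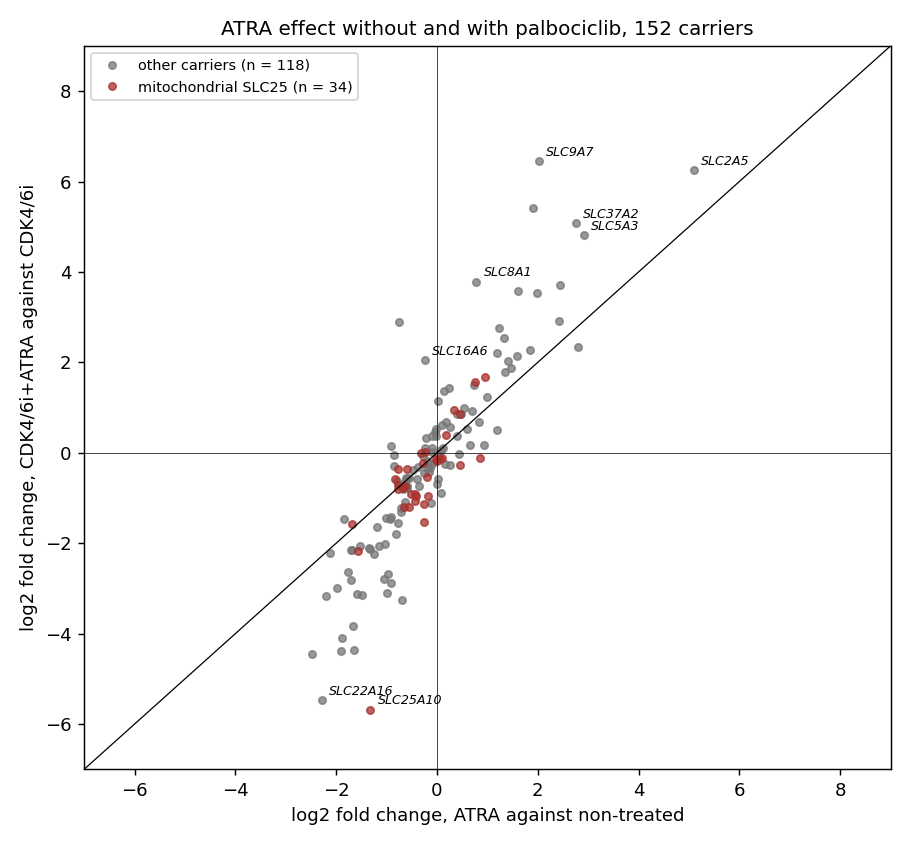
Log2 fold change with ATRA in non-treated cells (horizontal axis) against that with ATRA in palbociclib-treated cells (vertical axis) for 152 carriers, SLC26A11 left out, with SLC25 carriers in red and a line of equal effects. Most points off the centre lie farther from 0 vertically than horizontally, with SLC9A7 and SLC25A10 at the ends. SLC9A7 met the minimum count only through CDK4/6i+ATRA, so its place at the upper end rests on the group in which it is high. SLC15A3, SLC27A1, SLC41A2 and SLC43A2 met the minimum in the same way and are also plotted.

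Carriers of the superfamily under other symbols, a list of 37 of which 29 were tested, gave 10 higher and 15 lower with both drugs (41.0% and 40.7% of all tested genes were), at a median of -0.38. Of the mitochondrial sideroflexins, SFXN1 fell from 171 to 82.1 CPM, SFXN3 and SFXN5 rose from 19.1 to 46.1 and from 20.8 to 52.0 CPM, and SFXN2 and SFXN4 fell from 33.7 to 1.43 and from 68.1 to 10.4 CPM. SLCO3A1, an organic anion carrier, rose from 13.7 to 61.0 CPM. Of 5 neutrophil precursor markers, 2 were tested and ELANE, PRTN3 and AZU1 were listed at 0 in every library. Each of these at 0 is listed on 2 chromosomes or contigs, and whether they are absent from the cells was not tested. The summed level of the list, which holds counts of the other 2 only, was 6681, 6565 and 6347 CPM in the non-treated libraries, 269, 288 and 323 with ATRA, 3545, 3454 and 3417 with CDK4/6i and 25.9, 25.2 and 34.6 with CDK4/6i+ATRA. The most abundant was MPO, the granule peroxidase, with means of 6517, 293, 3469 and 28.0 CPM. All 5 myeloid identity markers were tested and summed to 986, 974 and 984 CPM in the non-treated libraries, 1227, 1163 and 1190.2 with ATRA, 967, 979 and 976 with CDK4/6i and 1394, 1439 and 1463 with CDK4/6i+ATRA. The most abundant by the mean over the 12 libraries was SPI1, a myeloid transcription factor, with means of 302, 463, 362 and 855 CPM. CEBPA, another, had 377, 145, 226 and 76.4 CPM, above SPI1 in the non-treated group. Of the lists for other cell types, T cell markers summed to between 0.55 and 3.10 CPM over the libraries, B cell markers to between 12.6 and 24.97 CPM with CD79A the most abundant, megakaryocyte markers to between 1.62 and 9.99 CPM with ITGA2B the most abundant at means of 2.01, 3.13, 7.63 and 8.93 CPM, higher with both drugs, erythroid markers to between 0 and 0.428 CPM, and epithelial or stromal markers to between 0 and 0.825 CPM. HBB, HBA1, EPCAM, COL1A2, MS4A1, TRAC and PF4 were at 0 in every library. The part of other cells or of cell stage in the carrier results was not tested.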

How the data were processed

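Per the submitters' notes, the authors used Trimmomatic 0.33, STAR 2.7.11a and hg38, and they deposited a table of whole-number read counts per gene without normalization. The table has the layout of featureCounts although the paper names RSEM with RefSeq genes, and the library kit was directional, with the strand setting of the counting not given in the sources used here. Genes were filtered with filterByExpr, TMM-normalized and tested with the quasi-likelihood test of edgeR 4.0.16 in R 4.3.3, in 1 model of the 4 groups with 8 residual degrees of freedom (common biological coefficient of variation 3.7%), with Benjamini-Hochberg adjustment over 13318 genes. The scripts were tested on simulated data. Alternatives were DESeq2 1.42.0, other scalings and filters, a replicate block and leaving out libraries. The rule for named genes took, per substrate class, the largest rise and fall with both drugs and the highest CPM per kb, and per other comparison the 3 or 5 largest rises and falls, among genes with a mean of at least 5 CPM, with genes at the count minimum and the companion lists. Genes outside this rule were added once their values had been looked at. The members and lists were chosen with earlier results of these data known. Comparison by protein identity was not run, and a few genes are not reported here.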

Additional observations from a re-analysis of the deposited data

Results flagged for a closer look

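Carriers were listed here when a drug moved them in opposite directions without and with the other drug, each direction and the interaction past the adjusted p threshold of edgeR's quasi-likelihood test. The values are interactions on the log2 scale. SLC9A3 reached 5 CPM, the level for naming, only through the group given both drugs, and SLC12A7 only through that given palbociclib alone. Their place in this list rests in part on the group in which each is high, so their interactions are given as sizes only. They are kept in the counts and shares that follow, and counts without them are not given. ATRA lowered 3 carriers alone and raised them in the presence of palbociclib: SLC3A2 (1.06), SLC16A6 (2.28) and SLC35A4 (0.54). Palbociclib lowered 8 carriers alone and raised them in the presence of ATRA: SLC3A2 (1.06), SLC16A7 (0.45), SLC4A2 (0.51), SLC9A3 (1.97), SLC20A1 (0.80), SLC31A1 (1.13), SLC25A40 (0.71) and SLC23A2 (1.24). Palbociclib raised 12 carriers alone and lowered them in the presence of ATRA: SLC15A4 (-0.50), SLC12A7 (-1.73), SLC26A2 (-0.44), SLC27A2 (-2.21), SLC25A12 (-0.89), SLC25A23 (-1.28), SLC25A30 (-0.78), SLC29A3 (-0.97), SLC45A4 (-0.67), SLC39A4 (-0.98), SLC39A6 (-0.50) and SLC39A11 (-0.45). The same patterns held for 2.39% of all tested genes with ATRA lowering first (1.96% of carriers), 3.39% with palbociclib lowering first (5.23% of carriers) and 3.34% with palbociclib raising first (7.84% of carriers). Opposite calls were kept for 3 of 3 ATRA results and 20 of 20 palbociclib results under the replicate block, 2 and 20 under DESeq2 size factors, 2 and 17 under the DESeq2 Wald test, and 0 and 16 under library size alone. Under all of these settings, 15 palbociclib results kept opposite calls. The search was widened from ATRA to both drugs and to all 153 carriers after the data were seen.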

How the results depend on the processing

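The counts of higher and lower carriers in the 6 comparisons stayed within 1.5 times their value under the alternatives tried, except under library size alone, where the interaction gave 28 higher and 91 lower carriers in place of 46 and 58. Over all tested genes, library size alone gave 1375 higher and 6061 lower interactions in place of 3258 and 3594. That setting also turned the medians with both drugs of iron, copper, magnesium and heme carriers (-0.0278), lipid carriers (-0.109) and nucleotide sugar carriers (-0.0465), and it moved the share of higher among called carriers from 45.3% to 30.0% for CDK4/6i+ATRA against ATRA and from 44.2% to 23.5% for the interaction. Over all tested genes, that setting moved these shares from 53.0% to 31.6% and from 47.5% to 18.5%. It moved the median of all tested genes by -0.28, -0.31 and -0.32 for CDK4/6i+ATRA against CDK4/6i, against ATRA and the interaction; the cause was not tested. Leaving out the 8 carriers that met the minimum through 1 group, a choice made after the data were seen, gave 42 higher and 58 lower interactions. Leaving out each library gave 52 to 55 higher and 78 to 80 lower carriers with both drugs. Of 1380 alternative values of 43 genes chosen by rule, 1 lost its call (SLC35A4, 0.02 under library size alone), and the filter of 10 counts in every library gave no value for 16. With the replicate number as a block, 55 carriers were higher and 79 lower with both drugs, and the replicate block gave 59 lower interactions in place of 58. Of 18 pairs of same-numbered samples, 0 deviated together with r over 0.1 (range -0.0702 to 0.0328), and 5 correlated best with their own number. A low r cannot show whether same-numbered samples came from the same experiment, so their pairing stays unknown. Carriers near the minimum of 20 counts, and those near 0 in a group, have fold changes limited by depth.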

Other observations

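Partner subunits and pumps that work with the carriers, a list of 12 of which 9 were tested, gave 3 higher and 4 lower genes when CDK4/6i+ATRA was compared with non-treated, near the 41.0% and 40.7% of all tested genes. OSTM1, a partner of lysosomal chloride exchange, rose from 44.6 to 179 CPM. Exons of 57 of the 153 carriers overlap those of another gene, and for 22 the partner had at least 10% as many counts as the carrier. Of neighbouring carriers on a chromosome, SLC38A1 and SLC38A2, with 89145 bases between them, both fell with CDK4/6i+ATRA.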
